A study of Mus musculus with 9 samples.

Results

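Complement genes are described here across the brains of aged mice given GRP-E1F2, aged mice given saline and young mice given saline. The 9 genes, C1qa, C1qb, C1qc, C3, C4b, C3ar1, C5ar1, Serping1 and Cd59a, were taken by gene symbol from an RNA-seq table of 22192 genes, and each symbol matched 1 row. The mice were KM mice, an outbred stock, labelled male. The 18M_E1F2 group was 18 months old and was gavaged every 2 days over 4 weeks with GRP-E1F2, a ginseng root polysaccharide, at 200 mg/kg. The 18M_Ctrl group, of the same age, and the 5M_Ctrl group, 5 months old, received physiological saline on the same schedule. The 3 libraries of a group are labelled as parallel samples. Whether these were separate mice is not stated, and the p-values below rest on the spread between libraries, which may be technical.

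Complement is a cascade of plasma and tissue proteins that tags particles for removal. In the classical pathway C1q, built from A, B and C chains, binds a target, and its partner proteases cleave C4 and C2. The resulting convertase cleaves C3, whose fragments coat the target or act as soluble signals. C3ar1 and C5ar1 are the receptors of the soluble fragments of C3 and C5. Serping1 encodes C1 inhibitor, which blocks the proteases of the C1 complex, and Cd59a encodes a membrane protein that stops assembly of the terminal pore. In the brain microglia are the main source of C1q, astrocytes are a known source of C3 and C4, and C1q and C3 are known for tagging synapses in mice.

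Values are TPM, transcript abundances scaled per library and per gene length. They keep no record of depth, so the precision of counting is unknown. Within each group, a single library took the intermediate value for most of the genes at which the other pair differed at least 1.3-fold. At genes whose other pair of libraries differed at least 1.3-fold, GRP-E1F2 library 3, aged saline library 2 and young saline library 3 lay between that pair for 91.8%, 91.5% and 89.2% of genes, while the 6 other libraries did so for 19.2% to 30.5%. Of the 9 complement genes, 6, 7 and 5 had their intermediate value in those libraries. Complement genes that passed a test are therefore given also without these 3 libraries. Markers of regions and cell types differed between the groups. Summed markers of cerebellar neurons were 129.7 to 141 TPM in GRP-E1F2 libraries, 1899.8 to 2284 TPM in aged saline libraries and 3144 to 4558 TPM in young saline libraries. Summed markers of choroid plexus also varied widely within both aged groups. They were 21.9 to 962 TPM with GRP-E1F2, 164 to 1252 TPM with aged saline and 2244 to 2302 TPM with young saline. The gene Ttr made up most of each of these sums, with means of 483, 726 and 2245 TPM in GRP-E1F2, aged saline and young saline libraries. The part of these markers in the results was not tested. The extraction protocol names retina while the tissue label is brain, and 6 photoreceptor markers summed to at most 7.79 TPM. No library had more than 0.174 TPM of the Y-linked genes Uty, Kdm5d, Eif2s3y or Ddx3y, against the label of male mice.

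The genes for the C1q chains lie side by side on mouse chromosome 4, within 18.7 kb, in the order C1qb, C1qc and C1qa (GRCm38.p6, the build also called mm10). C1qb spans chr4:136880126-136886200, C1qc chr4:136889801-136892936 and C1qa chr4:136895916-136898844, all on the minus strand, and no other annotated gene lies in that span. C3 and C4b are both on chromosome 17, at chr17:57203967-57228136 and chr17:34728139-34743902. The RefSeq promoter table of this build held 6 of the 9 genes, C1qb, C1qc, C3, C3ar1, C5ar1 and Cd59a, with 250 bases before and 50 bases from the start site. The promoters of C1qb and C1qc are shown because both genes encode chains of 1 complex. That of C3 is shown because its values did not overlap between any of the 3 groups. Capitals mark GAGGAA, a core that PU.1 and other ETS factors bind, on either strand in the C1q promoters, and TTGCNNAA, a C/EBP motif, in the C3 promoter.
C1qb, chr4:136886151-136886450, minus strand: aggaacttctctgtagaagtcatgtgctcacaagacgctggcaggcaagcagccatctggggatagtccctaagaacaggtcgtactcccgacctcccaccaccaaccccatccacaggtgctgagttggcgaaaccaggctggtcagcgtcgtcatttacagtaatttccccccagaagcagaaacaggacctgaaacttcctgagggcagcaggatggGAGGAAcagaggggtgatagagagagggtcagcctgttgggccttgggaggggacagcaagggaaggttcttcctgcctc
C1qc, chr4:136892865-136893164, minus strand: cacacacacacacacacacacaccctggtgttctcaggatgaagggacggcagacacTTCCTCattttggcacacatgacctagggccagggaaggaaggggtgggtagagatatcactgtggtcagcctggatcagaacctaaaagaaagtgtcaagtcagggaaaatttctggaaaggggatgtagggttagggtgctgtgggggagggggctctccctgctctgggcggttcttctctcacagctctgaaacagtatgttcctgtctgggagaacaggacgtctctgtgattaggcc
C3, chr17:57228087-57228386, minus strand: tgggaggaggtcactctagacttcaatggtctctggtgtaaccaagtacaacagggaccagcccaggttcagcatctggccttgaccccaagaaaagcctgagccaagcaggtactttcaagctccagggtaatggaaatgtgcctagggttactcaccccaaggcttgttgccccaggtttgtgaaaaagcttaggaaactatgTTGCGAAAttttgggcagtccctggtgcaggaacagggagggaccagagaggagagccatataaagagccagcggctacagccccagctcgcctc
The GAGGAA match of C1qb began 30 bases before the start site and that of C1qc, read here as its reverse complement, 193 bases before it. Cd59a also held GAGGAA, as did 28.3% of the 32851 promoters in the table. TTGCNNAA was found in C3, 45 bases before the start site, and in 10.8% of all promoters. Another pattern, TTCNNNGAA, a palindrome that STAT factors bind, was in none of the 6 promoters and in 8.30% of all promoters. Both strands were searched, no promoter of the 6 held more than 1 of the patterns, and a match is a description of letters only.

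Levels of the 9 genes spanned more than 2 orders of magnitude per length. The C1q chains were the highest in every library, with group means between 28.4 and 62.2 TPM. Cd59a, C4b and Serping1 followed, with group means between 3.07 and 9.73 TPM. C3, C3ar1 and C5ar1 stayed below 1 TPM in every library. C1qa exceeded C1qb in 9 of 9 libraries and C1qb exceeded C1qc in 8 of 9, the exception being aged saline library 1. Every library had more C1qc than Cd59a, and 8 of 9 had more Cd59a than Serping1. C4b and Serping1 changed places, since C4b was higher in the 6 libraries of aged mice and Serping1 in the 3 of young mice. C3 was above C3ar1 in 6 libraries, and C3ar1 was above C5ar1 in all 9.

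**Figure D1:**
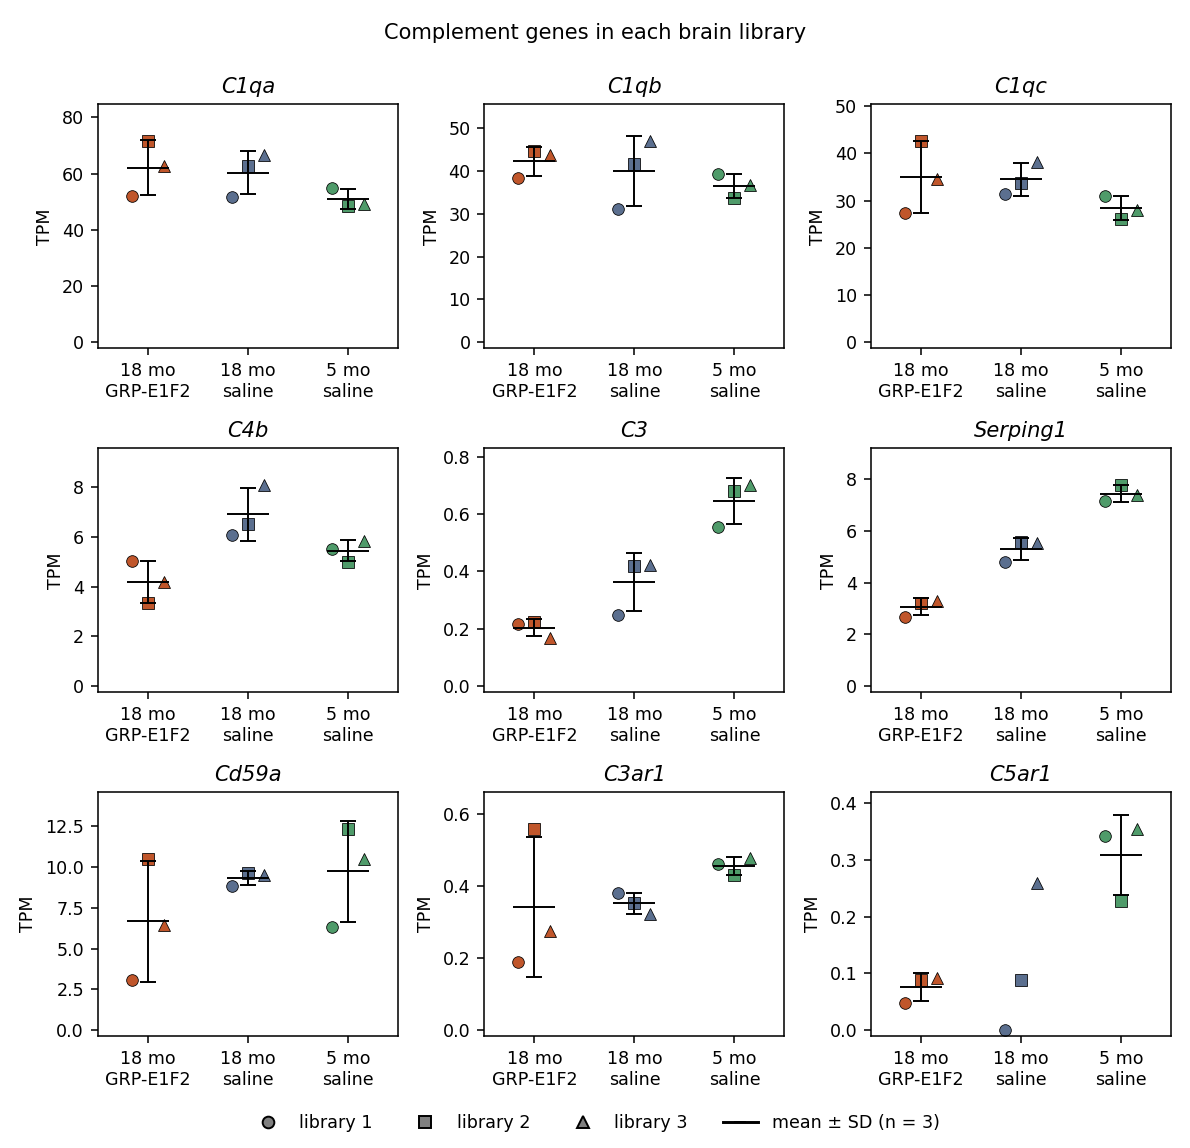
TPM of each complement gene in each library, 1 panel per gene, with 18-month GRP-E1F2, 18-month saline and 5-month saline on the x axis; symbols are libraries and bars are the mean ± SD (n = 3), left out for C5ar1 in 18-month saline, where 1 library is listed at 0. The groups of Serping1 and of C3 do not overlap and are lowest with GRP-E1F2, narrowly so for C3 against 18-month saline. The C1q chains overlap between GRP-E1F2 and 18-month saline.

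Between GRP-E1F2 and aged saline, C4b and Serping1 fell, and the differences of the C1q chains did not pass. Of the 9 genes, 6 had a mean of at least 1 TPM and entered the test, a moderated linear model on log2(TPM + 1), where a gene with an adjusted p under 0.05 is said to have risen or fallen. C4b and Serping1 fell, 2 of 6, where 20.8% of all 13301 genes tested were called in either direction and 13.4% were lower. The libraries of both groups did not overlap for the same 2 genes, where 36.3% of all genes did not overlap.

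Between aged and young saline mice, Serping1 fell, 1 of 6 genes tested, where 16.7% of all genes were called and 11.2% were lower. The groups did not overlap for 3 of 6, C1qc, C4b and Serping1, where 41.5% of all genes did not overlap. Between GRP-E1F2 and young saline, Serping1 again fell, 1 of 6, where 46.6% of all genes were called and 29.4% were lower. It was the 1 gene of the 6 whose groups did not overlap there, while 61.4% of all genes did not overlap. The comparisons share libraries, so they are given side by side and not as repeats of each other. Other scalings moved the split of calls over all genes. With GRP-E1F2 against aged saline, 994 genes rose and 1777 fell, 1302 and 1613 after median-of-ratios scaling, and 1466 and 1470 after quantile normalisation. With aged against young saline, 729 rose and 1488 fell, 925 and 1025 after median-of-ratios scaling, and 966 and 1102 after quantile normalisation. With GRP-E1F2 against young saline, 2294 rose and 3910 fell, 3015 and 3074 after median-of-ratios scaling, and 3115 and 2978 after quantile normalisation. The calls of C4b and Serping1 were the same under both scalings.

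**Figure D2:**
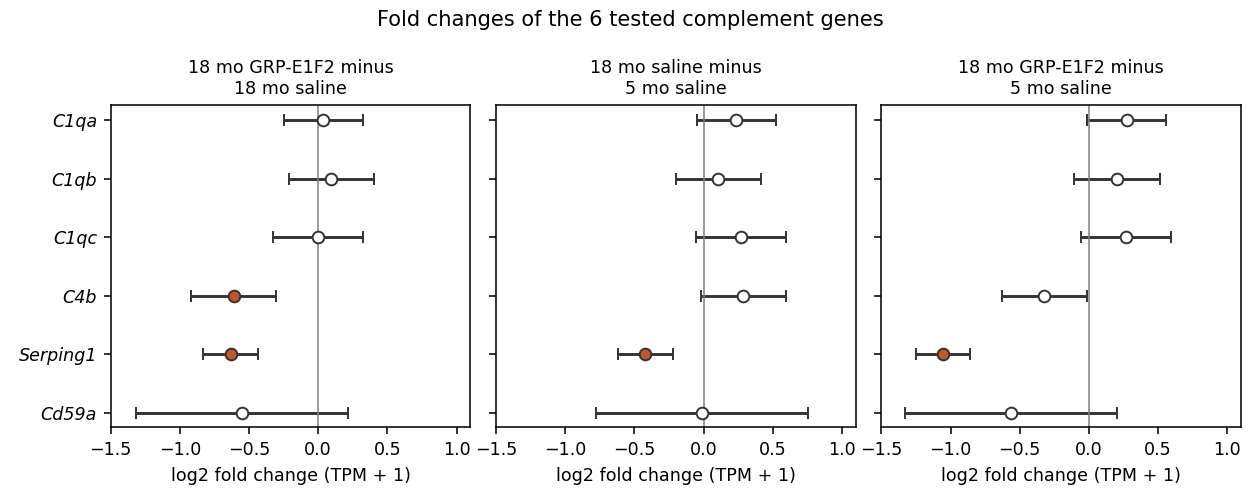
Difference in log2(TPM + 1) of the 6 complement genes tested, 1 panel per comparison, with points for the estimate, filled where the adjusted p was under 0.05, and lines for the 95% confidence interval. Serping1 lies left of 0 and is filled in each panel, C4b is filled against 18-month saline only, and the intervals of the C1q chains include 0.

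The C1q chains start the classical pathway. C1qa, the A chain, had 51.9, 71.7 and 62.9 TPM in GRP-E1F2 libraries, 51.8, 62.6 and 66.7 TPM in aged saline libraries, and 54.9, 48.6 and 49.1 TPM in young saline libraries. GRP-E1F2 and aged saline covered nearly the same range, and young saline reached into the lower end of both. C1qb, the B chain, had 38.4, 44.8 and 43.7 TPM with GRP-E1F2, 31.1, 41.7 and 47.1 TPM with aged saline, and 39.2, 33.7 and 36.8 TPM with young saline, so that all groups overlapped. C1qc, the C chain, had 27.4, 42.7 and 34.6 TPM with GRP-E1F2, 31.5, 33.8 and 38.1 TPM with aged saline, and 31.0, 26.2 and 28.0 TPM with young saline. Its aged saline libraries all lay above the young ones, by a narrow margin.

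With GRP-E1F2 against aged saline, the difference in log2(TPM + 1) was 0.04 for C1qa (95% interval -0.25 to 0.32, adjusted p = 0.860). For C1qb it was 0.10 (-0.21 to 0.41, adjusted p = 0.659). For C1qc it was -0.00 (-0.33 to 0.33, adjusted p = 0.999), and its sign turned under other scalings. With aged against young saline the differences were 0.24 for C1qa (-0.05 to 0.52, adjusted p = 0.218), 0.11 for C1qb (-0.20 to 0.42, adjusted p = 0.618) and 0.27 for C1qc (-0.06 to 0.60, adjusted p = 0.220). With GRP-E1F2 against young saline they were 0.27 for C1qa (-0.01 to 0.56, adjusted p = 0.105), 0.20 for C1qb (-0.11 to 0.51, adjusted p = 0.253) and 0.27 for C1qc (-0.06 to 0.60, adjusted p = 0.157). That last comparison moved with single GRP-E1F2 libraries. Without library 1, the lowest of its group for each chain, C1qa rose by 0.40 (adjusted p = 0.0221) and C1qc by 0.43 (adjusted p = 0.0181), while C1qb differed by 0.27 and did not pass (adjusted p = 0.180). Without library 2, the highest of its group for each chain, C1qa differed by 0.17 (adjusted p = 0.299), C1qb by 0.16 (adjusted p = 0.431) and C1qc by 0.12 (adjusted p = 0.459).

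C1qa kept a nearly fixed share of the summed TPM of the chains, while the shares of C1qb and C1qc moved more. C1qa made up 43.1% to 45.3% of the sum over the 9 libraries, C1qb 27.2% to 32.6% and C1qc 23.3% to 27.5%. The sum was 117.7 to 159 TPM in GRP-E1F2 libraries, 114 to 152 TPM in aged saline libraries and 108 to 125 TPM in young saline libraries.

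Most microglial markers had larger differences between groups than the C1q chains. In bulk tissue fewer cells of a type and less RNA per cell cannot be told apart. The summed TPM of 14 microglial markers was 309.6 to 376 in GRP-E1F2 libraries, 281 to 318 in aged saline libraries and 208 to 248 in young saline libraries, and no marker was at 0. Tyrobp, an adaptor of immune receptors, and Ctss, a lysosomal protease, had the highest levels among them on average over the 9 libraries. With GRP-E1F2 against aged saline, 5 of the 14 markers rose, with a median difference of 0.35. With aged against young saline 9 rose, with a median of 0.41. With GRP-E1F2 against young saline 13 rose, with a median of 0.71, while the medians over all genes tested were -0.02, -0.05 and -0.07 in these comparisons. Against aged saline the marker differences ran from -0.10 for Tyrobp to 0.86 for Sall1, a transcription factor of microglial identity.

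Set against these markers, C1q was lower in GRP-E1F2 and aged saline libraries than in young ones. C1q amounted to 38.0 to 42.3 TPM per 100 TPM of summed microglial markers in GRP-E1F2 libraries, 40.7 to 47.8 in aged saline libraries and 50.5 to 52.1 in young saline libraries. The young libraries stood above both aged groups, which overlapped. On the mean log2 scale, where each marker counts alike, C1q exceeded the markers by 1.197 to 1.28 in GRP-E1F2 libraries, 1.32 to 1.65 in aged saline libraries and 1.73 to 1.75 in young saline libraries, with no overlap between groups. The difference of the C1q mean was exceeded by 12 of 14 markers with GRP-E1F2 against aged saline, 12 with aged against young saline and 14 with GRP-E1F2 against young saline. This comparison with the markers was made as a description, with no test.

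**Figure D3:**
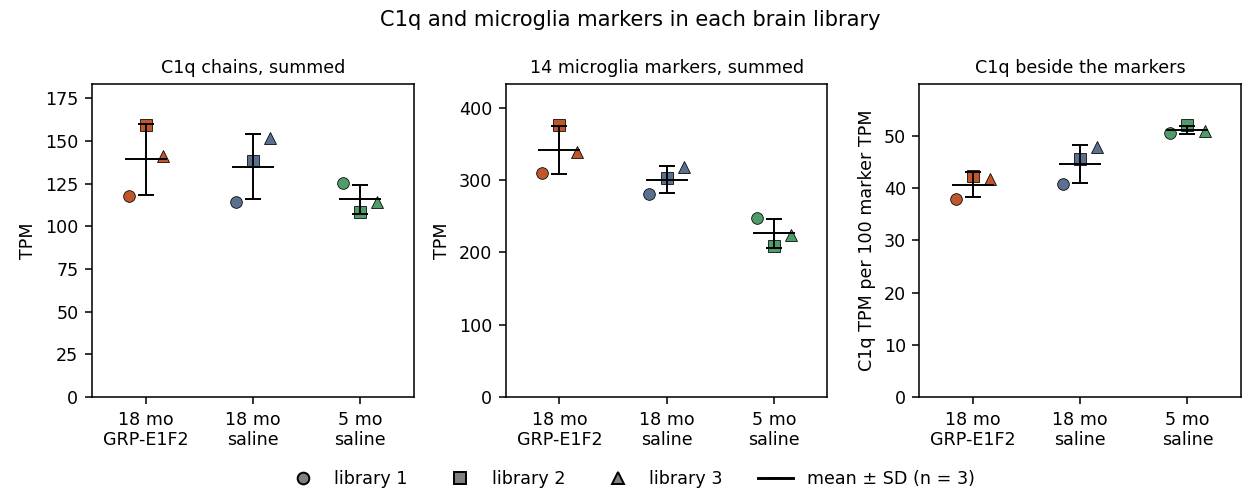
Summed TPM of the C1q chains, summed TPM of 14 microglia markers, and C1q TPM per 100 TPM of those markers, for each library (symbols) of 18-month GRP-E1F2, 18-month saline and 5-month saline, with the mean ± SD (n = 3). The marker sums of both 18-month groups lie above those of 5-month saline, and C1q per marker lies below it.

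C4b encodes complement component C4, cleaved after C1q binds. It had 5.04, 3.33 and 4.20 TPM in GRP-E1F2 libraries, 6.07, 6.53 and 8.09 TPM in aged saline libraries, and 5.50, 5.00 and 5.82 TPM in young saline libraries. Every GRP-E1F2 library was below every aged saline library, and every aged saline library was above every young one, narrowly at the closest. C4b fell to 4.19 ± 0.857 TPM with GRP-E1F2, against 6.90 ± 1.06 TPM with aged saline (SD, n = 3 each), a difference of -0.61 ± 0.136 (SE, adjusted p = 0.0139). With aged against young saline it differed by 0.29 (95% interval -0.02 to 0.59, adjusted p = 0.171), and with GRP-E1F2 against young saline by -0.32 (-0.63 to -0.02, adjusted p = 0.0793). Without the 3 intermediate libraries the difference from aged saline was -0.65 and did not pass (adjusted p = 0.241). Without GRP-E1F2 library 1 the difference from young saline was -0.44 and passed (adjusted p = 0.0253), and without library 2 it was -0.20 (adjusted p = 0.232).

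C4b has a near copy in the mouse, C4a, which lies close by at chr17:34809092-34823460. Of the 50-base words in C4b transcripts, 35.2% also occur in C4a, so the C4b value is uncertain where reads were split between them. No row carried the symbol C4a, so C4a was not analysed here. Whether its reads were counted for C4b is not known. Some markers of astrocytes and oligodendrocytes fell beside C4b with GRP-E1F2 against aged saline. Some also fell with aged against young saline, where C4b was higher in the aged libraries and did not pass. The summed TPM of 10 astrocyte markers was 1549.9 to 1693 in GRP-E1F2 libraries, 2566 to 2875 in aged saline libraries and 3241 to 4015 in young saline libraries. Of these markers 6 fell with GRP-E1F2 against aged saline and 7 with aged against young saline. Of 8 mature oligodendrocyte markers 4 fell with GRP-E1F2 against aged saline and 6 with aged against young saline, with sums of 5375 to 5584, 5997 to 7242 and 8845 to 9405 TPM in GRP-E1F2, aged saline and young saline libraries. None of these markers was at 0 in any group, and their part in the C4b result was not tested.

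C3 encodes the component on which the classical, lectin and alternative routes converge. It had 0.218, 0.222 and 0.169 TPM in GRP-E1F2 libraries, 0.247, 0.417 and 0.424 TPM in aged saline libraries, and 0.555, 0.679 and 0.702 TPM in young saline libraries. The groups did not overlap, and values were lowest with GRP-E1F2 and highest in young mice. The margin between GRP-E1F2 and aged saline was narrow, 0.222 against 0.247 TPM at the closest. Its means of 0.203 ± 0.0293 TPM with GRP-E1F2, 0.363 ± 0.1003 TPM with aged saline and 0.645 ± 0.0791 TPM with young saline (SD, n = 3 each) were below the limit of the test, so it was tested in a fit of all 18383 genes above 0 in any library. There C3 differed by -0.18 with GRP-E1F2 against aged saline (95% interval -0.32 to -0.04, adjusted p = 0.0880). It fell by 0.27 with aged against young saline (adjusted p = 0.0285) and by 0.45 with GRP-E1F2 against young saline (adjusted p = 0.000941). In that fit Serping1 and C3 were the 2 genes of the 9 that fell with aged against young saline, where 13% of all genes were called and 8.9% were lower. With GRP-E1F2 against aged saline C4b and Serping1 fell, where 16.6% were called and 10.7% were lower. With GRP-E1F2 against young saline 3 of the 9 fell, C3, C5ar1 and Serping1, where 38% of all genes were called and 23.9% were lower. Without the 3 intermediate libraries the C3 differences were -0.13, -0.28 and -0.41 for GRP-E1F2 against aged saline, aged against young saline and GRP-E1F2 against young saline, and none passed (adjusted p = 0.653, 0.491 and 0.0691). Leaving out GRP-E1F2 library 3, aged saline library 2, young saline library 2 or young saline library 3 alone ended the call of aged against young saline, at adjusted p between 0.0542 and 0.111, and without aged saline library 1 C3 passed against aged saline (-0.24, adjusted p = 0.0189). Fold changes on the log2(TPM + 1) scale understate the change of genes this low. The astrocyte sums above moved in the same order as C3, and so did the summed markers of cerebellar neurons. The part of either was not tested, and the astrocyte sums cannot be told apart from the difference in cerebellar markers. Aldoc and S100b made up most of the astrocyte sums, with means of 606 and 619 TPM with GRP-E1F2. Their means were 1144 and 1084 TPM with aged saline and 1500 and 1492 TPM with young saline. Of the 10 astrocyte markers 6 fell and 0 rose with GRP-E1F2 against aged saline, where Slc1a2 differed by 0.26 and did not pass. Against young saline 9 fell and 1 rose.

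C3ar1, the receptor of the C3a fragment (chr6:122847140-122856157), had 0.190, 0.560 and 0.276 TPM in GRP-E1F2 libraries, 0.381, 0.354 and 0.321 TPM in aged saline libraries, and 0.461, 0.430 and 0.478 TPM in young saline libraries. The GRP-E1F2 libraries held both the lowest and the highest value of all 9. In the fit without a filter it did not pass in any comparison, with differences of -0.02 for GRP-E1F2 against aged saline (adjusted p = 0.910), -0.11 for aged against young saline (adjusted p = 0.447) and -0.13 for GRP-E1F2 against young saline (adjusted p = 0.292). Without GRP-E1F2 library 2, the highest of all, the difference from young saline was -0.24 and passed (adjusted p = 0.00537). C5ar1, the receptor of C5a (chr7:16246743-16259540), had 0.0471, 0.0881 and 0.0915 TPM in GRP-E1F2 libraries, was listed at 0 and had 0.0883 and 0.260 TPM in aged saline libraries, and had 0.343, 0.228 and 0.356 TPM in young saline libraries. GRP-E1F2 values lay within the range of aged saline and below all young values. C5ar1 fell by 0.28 with GRP-E1F2 against young saline (adjusted p = 0.0240). It differed by -0.24 with aged against young saline (adjusted p = 0.0865) and by -0.05 with GRP-E1F2 against aged saline (adjusted p = 0.731). The call against young saline was lost without the 3 intermediate libraries (-0.27, adjusted p = 0.244), and without any single GRP-E1F2 library or young saline library 1 or 3 (adjusted p between 0.0529 and 0.0820). Without aged saline library 3, C5ar1 passed with aged against young saline (-0.33, adjusted p = 0.0177).

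Neutrophils, which carry C5ar1 in blood, gave a different order. The summed TPM of 8 neutrophil markers was 1.38 to 4.12 in GRP-E1F2 libraries, with Ngp, Elane and Retnlg at 0, 36.6 to 101 in aged saline libraries, and 5.12 to 8.24 in young saline libraries, with Elane at 0. All 4 of these markers that were tested fell with GRP-E1F2 against aged saline and rose with aged against young saline. Markers of border and perivascular macrophages summed to 8.84 to 14.04 TPM with GRP-E1F2, 10.1 to 11.998 TPM with aged saline and 13.4 to 17.3 TPM with young saline. The microglial sums given above were lowest in young saline libraries. Markers of monocytes summed to 6.72 to 13.8 TPM with GRP-E1F2, 5.90 to 9.34 TPM with aged saline and 3.16 to 4.15 TPM with young saline. The part of any of these cells in the receptor values was not tested.

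Serping1, the gene of C1 inhibitor (chr2:84765360-84775444), had 3 separate levels. It had 2.69, 3.22 and 3.30 TPM in GRP-E1F2 libraries, 4.81, 5.58 and 5.52 TPM in aged saline libraries, and 7.15, 7.78 and 7.38 TPM in young saline libraries. The groups did not overlap, and the gap between neighbouring groups was wider than the range within any of them. Serping1 fell to 3.07 ± 0.333 TPM with GRP-E1F2, against 5.30 ± 0.431 TPM with aged saline (SD, n = 3 each), a difference of -0.63 ± 0.0875 (SE, adjusted p = 0.00141). It was also lower with aged saline than with young saline, 7.44 ± 0.318 TPM (SD, n = 3), by -0.42 ± 0.0875 (SE, adjusted p = 0.0169). With GRP-E1F2 against young saline the difference was -1.05 ± 0.0875 (SE, adjusted p = 2.81e-05).

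The Serping1 difference between GRP-E1F2 and young saline passed in each of 19 alternative fits. Without the 3 intermediate libraries it was -1.10 (adjusted p = 0.00851), that from aged saline was -0.64 and did not pass (adjusted p = 0.117), and that of aged against young saline was -0.46 and did not pass (adjusted p = 0.400). The call with aged against young saline was also lost without aged saline library 2, young saline library 2 or young saline library 3. Summed markers of vessel and meningeal cells were lowest with GRP-E1F2 and highest in young mice, with overlap between GRP-E1F2 and aged saline. The summed TPM of 9 fibroblast markers was 39.9 to 49.3 in GRP-E1F2 libraries, 45.2 to 68.3 in aged saline libraries and 108 to 121 in young saline libraries, and that of 8 endothelial markers was 179 to 211 TPM with GRP-E1F2, 208 to 222 TPM with aged saline and 244.8 to 259.9 TPM with young saline. Of the fibroblast markers 1 fell with GRP-E1F2 against aged saline and 7 with aged against young saline. Of the endothelial markers 0 fell with GRP-E1F2 against aged saline and 1 with aged against young saline. With GRP-E1F2 against aged saline the median difference was -0.06 for the fibroblast markers and -0.10 for the endothelial markers. No such marker was at 0, and the part of these cells in the Serping1 result was not tested.

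Cd59a, which blocks the terminal pore, varied widely within the GRP-E1F2 and young saline groups. It had 3.09, 10.5 and 6.45 TPM in GRP-E1F2 libraries, 8.82, 9.65 and 9.53 TPM in aged saline libraries, and 6.32, 12.4 and 10.5 TPM in young saline libraries. All groups overlapped. The differences were -0.55 with GRP-E1F2 against aged saline (95% interval -1.32 to 0.22, adjusted p = 0.284), -0.01 with aged against young saline (-0.78 to 0.76, adjusted p = 0.986) and -0.56 with GRP-E1F2 against young saline (-1.33 to 0.21, adjusted p = 0.204). Without GRP-E1F2 library 2, the highest of its group, the last of these was -0.91 and passed (adjusted p = 0.0318), and without library 1, the lowest, it was -0.17 (adjusted p = 0.620). Against aged saline the difference was -0.90 without library 2 (adjusted p = 0.0607) and -0.16 without library 1 (adjusted p = 0.703).

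Cd59b is a second mouse gene for the same kind of protein and lies beside Cd59a on chromosome 2, at chr2:104069781-104085790 and chr2:104095753-104115410. Its listed TPM was above that of Cd59a in every library, though how shared reads were treated is not known. Cd59b had 51.4, 35.8 and 43.1 TPM in GRP-E1F2 libraries, 59.1, 45.4 and 29.0 TPM in aged saline libraries, and 42.5, 30.3 and 36.6 TPM in young saline libraries. The groups overlapped, and the differences were 0.01, 0.24 and 0.24 for GRP-E1F2 against aged saline, aged against young saline and GRP-E1F2 against young saline (adjusted p = 0.985, 0.521 and 0.427). Cd59a made up 5.68% to 22.6% of their summed TPM in GRP-E1F2 libraries, 12.99% to 24.7% in aged saline libraries and 12.96% to 29.0% in young saline libraries. In library 1 of each group Cd59a was at the lowest value of its group while Cd59b was at the highest. The transcripts share few 50-base words, 3.98% of those of Cd59a and 9.37% of those of Cd59b, so some reads could be split between them.

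A list of 52 other complement genes held 51 in the table, of which 21 reached 1 TPM on average and were tested. With GRP-E1F2 against aged saline 1 of the 21 rose and 5 fell, where 20.8% of all genes tested were called and 13.4% were lower, with a median difference of -0.06, beside -0.02 over all genes tested. Among genes that start the lectin route, Masp2, a protease that cleaves C4 and C2, fell to 5.15 ± 0.771 TPM, against 9.56 ± 1.02 TPM in aged saline mice (SD, n = 3 each), a difference of -0.78 (adjusted p = 0.00141). Masp1, its partner protease, fell to 6.80 TPM, against 8.997 TPM (-0.36, adjusted p = 0.0196). Colec12, a scavenger receptor of the collectin family, fell to 1.70 TPM, against 2.68 TPM (-0.44, adjusted p = 0.00730). In the alternative route, properdin (Cfp), which stabilises the convertase, fell to 2.63 TPM, against 4.56 TPM (-0.63, adjusted p = 0.00565). Vitronectin (Vtn), a plasma protein that restrains the terminal complex, fell to 37.9 TPM, against 47.1 TPM (-0.31, adjusted p = 0.00757). Calreticulin (Calr), a chaperone that also binds C1q at the cell surface, rose to 286 TPM, against 252 TPM (0.18, adjusted p = 0.0221).

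With aged against young saline 2 of the 21 rose and 3 fell, where 16.7% of all genes were called and 11.2% were lower, with a median of 0.06 beside -0.05 over all genes. Among those that fell, Colec12 had a difference of -0.34 (adjusted p = 0.0288) and Vtn of -0.23 (adjusted p = 0.0334). Factor B (Cfb), the protease of the alternative convertase, rose to 2.22 TPM, against 1.53 TPM in young saline mice (0.35, adjusted p = 0.0306). C8g, a chain of the terminal component C8, rose to 3.94 TPM, against 2.78 TPM (0.39, adjusted p = 0.0460).

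With GRP-E1F2 against young saline 4 of the 21 rose and 8 fell, where 46.6% of all genes were called and 29.4% were lower, with a median of 0.04 beside -0.07 over all genes. The counts of the list were not tested against these shares over all genes. Among the 8 that fell were Colec12 (-0.79), Vtn (-0.53), Cfp (-0.83), Masp2 (-0.66), Masp1 (-0.45), the clearance receptor Lrp1 (-0.43) and thrombomodulin (Thbd, -0.28), with adjusted p between 0.000126 for Colec12 and 0.0447 for Thbd. Csmd1 and Csmd3, large membrane proteins with complement control domains, rose by 0.59 (adjusted p = 0.00238) and 0.34 (adjusted p = 0.00699). Susd4, a membrane inhibitor of the cascade, rose by 0.29 to 54.5 TPM, against 44.4 TPM (adjusted p = 0.0129), and C8g rose by 0.42 (adjusted p = 0.0141). The highest of the complement genes tested was clusterin (Clu), an inhibitor of the terminal complex made by astrocytes, at a mean of 486 TPM over the 9 libraries. Mbl1, Colec10, Cfd, C9, Cpn2 and Vsig4 were listed at 0 in every library. Without the 3 intermediate libraries 3 of the 21 passed with GRP-E1F2 against young saline, and 0 passed by limma in each of the other comparisons, with 5 at an unadjusted p under 0.05 against aged saline and 1 with aged against young saline.

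**Figure D4:**
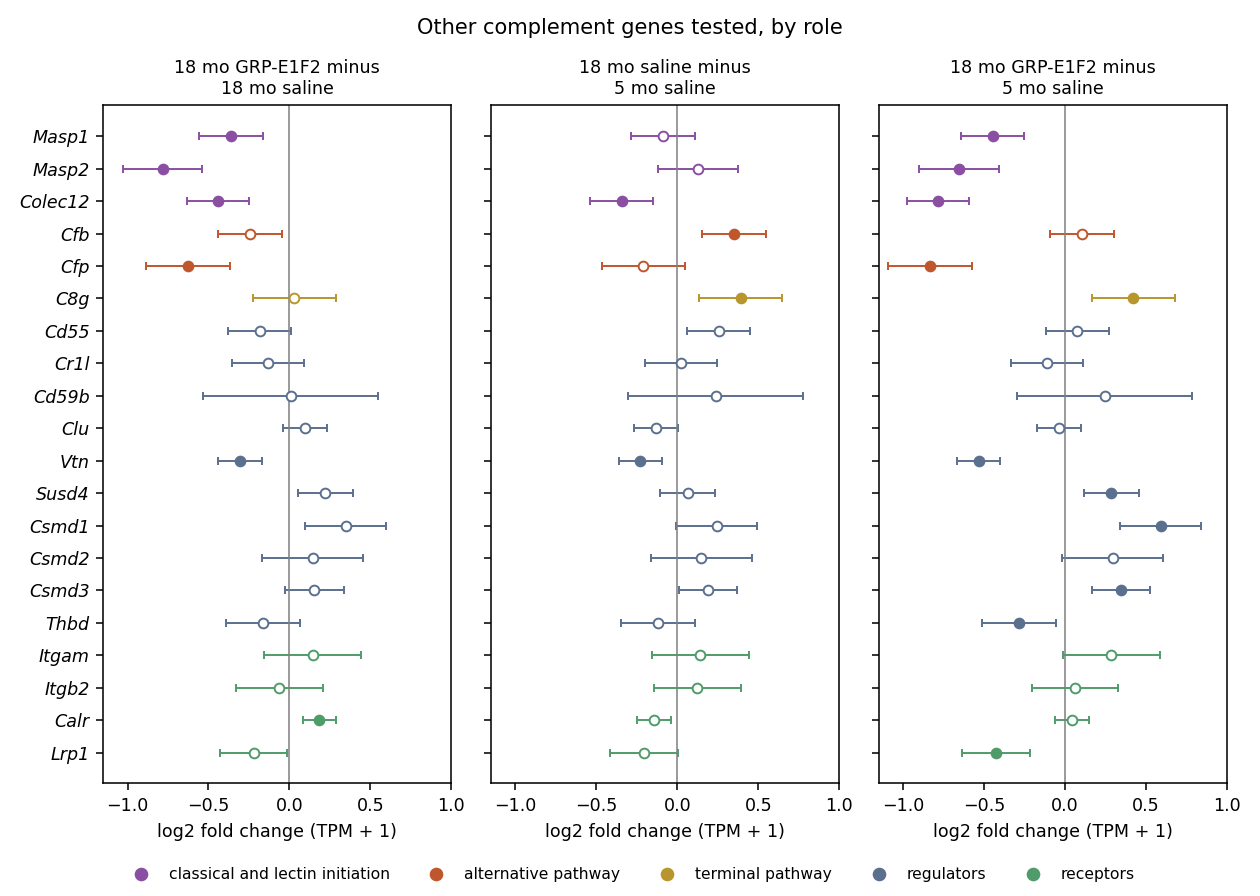
Difference in log2(TPM + 1) of other complement genes tested, coloured by role, 1 panel per comparison, with points for the estimate, filled where the adjusted p was under 0.05, and lines for the 95% confidence interval. Masp1, Masp2, Colec12, Cfp and Vtn lie left of 0 and are filled in both panels of GRP-E1F2.

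Genes were ranked by how closely their profile over the 9 libraries followed that of the complement genes, as the mean absolute difference of centred log2(TPM + 1) values. The profile of the C1q mean was closest to Dhrsx (0.0533), Psme1 (0.0535) and Rplp1 (0.0569) among 9350 genes compared. Psme1 encodes a subunit of the proteasome activator PA28, Rplp1 a ribosomal protein and Dhrsx a dehydrogenase of the short-chain family. C4b was closest to Abcc10 (0.0841), a transporter, Dgcr6 (0.0912) and LOC102634078 (0.0946) among 5727 genes. None of these 6 genes is a complement gene or in a marker list used here. The libraries share their composition of cells and regions, so likeness is a description of 9 values.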

How the data were processed

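RNA-seq of 9 brain libraries was deposited as 1 table of TPM per gene, computed by the authors. Libraries were made with the NEBNext Ultra II kit from 0.4 ug of total RNA, per the labels' protocols. HISAT2, Picard, SAMtools 0.1.18, GATK and the build mm10 are named, per the submitters' processing notes. The annotation, the tool that made the TPM and its treatment of strand and shared reads are details not given in the sources used here. TPM keeps no depth, so no counting interval was computed.

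Values were transformed to log2(TPM + 1). Of 22192 genes, the 13301 whose mean over the libraries reached 1 TPM were tested with limma 3.58.1 in R 4.3.3 (trended eBayes, two-sided) over all 9 libraries, with 3 contrasts and Benjamini-Hochberg adjustment over all genes tested. The script was tested on simulated data. The complement genes, the gene lists and the tests were chosen with earlier results of these data known. Other complement genes were named by a rule, up to 8 called per comparison with the smallest p plus Cd59b and C4a. The Y-linked genes, Clu, Csmd3, Susd4, Thbd and the genes listed at 0 are not covered by that rule. They were picked with their values in view, as were the examples among the markers. A few genes that the rule or the lists took are not reported here. Shared 50-base words were counted in GENCODE transcripts, and positions and promoters are RefSeq's for GRCm38.p6. Alternatives were other pseudocounts, filters, scalings and limma settings, a replicate block, 2 libraries per group, and leaving out each library. Other tools were Python 3.11.15, numpy 2.4.6, pandas 2.3.3 and matplotlib 3.10.9.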

Additional observations from a re-analysis of the deposited data

How the results depend on the processing

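Of 342 values of the 6 complement genes tested, in 3 comparisons under 19 alternatives, 317 kept their direction and side of the threshold, 4 newly passed, 6 no longer passed and 15 changed sign, all 15 from differences that had not passed. Under the fit of 2 libraries per group, without GRP-E1F2 library 3, aged saline library 2 and young saline library 3, 0 complement genes passed by limma against aged saline (2 at an unadjusted p under 0.05) and 0 with aged against young saline (1 unadjusted). Over all genes that fit called 248 with GRP-E1F2 against aged saline, 3 with aged against young saline and 1713 with GRP-E1F2 against young saline, and of the other complement genes 0, 0 and 3, with 5 and 1 at an unadjusted p under 0.05 for the zeros. With no filter on low values, 2 complement genes passed with aged against young saline and 3 with GRP-E1F2 against young saline. With a mean of at least 5 TPM, 1 and 5 of the other complement genes passed in those comparisons, since fewer genes were tested. Leaving out 1 library gave 2 to 2, 0 to 1 and 1 to 4 complement genes called with GRP-E1F2 against aged saline, aged against young saline and GRP-E1F2 against young saline. It gave 1345 to 3060, 371 to 2635 and 4737 to 6635 calls over all genes, and 4 to 8, 1 to 5 and 10 to 13 among the other complement genes. The lowest of these over all genes came without aged saline library 2 in the comparison with aged saline and without young saline library 3 with aged against young saline. In that comparison 1 other complement gene passed without GRP-E1F2 library 3, aged saline library 2, young saline library 2 or young saline library 3. Fits of C3, C3ar1 and C5ar1 with fewer libraries and no filter were added after seeing the data, and in them C5ar1 with GRP-E1F2 against aged saline turned to 0.044 without aged saline library 3 and C3ar1 to 0.062 without GRP-E1F2 library 1, 0.011 without library 3 and 0.012 with 2 libraries per group. Apart from these designs the cause of the changes was not tested.

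Leaving out 1 library moved the log2 difference of C1qa between -0.070 and 0.16, of C1qb between -0.070 and 0.22 and of C1qc between -0.15 and 0.16 with GRP-E1F2 against aged saline. With aged against young saline it moved C1qb between -0.018 and 0.27 and Cd59a between -0.26 and 0.17. C1qc with GRP-E1F2 against aged saline was 0.0015 with a pseudocount of 5 TPM, 0.031 after median-of-ratios scaling and 0.012 after quantile normalisation. Cd59a with aged against young saline was 0.033 and 0.036 after these scalings and 0.040 with 2 libraries per group. Whether replicate numbers pair the libraries is not known. Deviations of same-numbered libraries correlated between -0.05 and 0.13, above 0.1 in 1 of 9 pairs. Those of differently numbered libraries correlated between -0.13 and 0.12, a similar range, so these values cannot decide it. With the number as a replicate block, 2, 1 and 1 complement genes, 8, 4 and 11 other complement genes and 2589, 2055 and 5944 of all genes passed in the 3 comparisons. Levels under 1 TPM, without a known depth, limit C3, C3ar1 and C5ar1.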
